A study of Mus musculus with 2 samples.

Results

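Of 18129 Prrc2a RIP-seq peaks in replicate 1, 11934 overlapped an exon of a protein-coding gene by at least 1 bp, and 4617 of these (38.7%) shared no base with any of the 18671 peaks of replicate 2. These 4617 exonic peaks found only in replicate 1, of 36800 peaks in both lists, lay in exons of 2322 genes and are described here. They were chosen by the presence and absence of peak calls in the same lists, so what the choice fixes is given as a description with no test, and nothing is claimed to be particular to them. RIP-seq sequences the RNA that comes down with a protein, here on beads carrying an antibody against Prrc2a. Both libraries, called biological replicates, came from whole brains of male wild-type mice (C57BL/6J, 4 weeks old), untreated and of 1 condition, and the protocol mentions 3 brains without saying how they fall to the replicates. The lysate was precleared with goat IgG, RNA on the beads was digested with micrococcal nuclease, and rRNA was removed before sequencing. The peak lists give a position and a fold enrichment, the linear ratio of the precipitate over a control library whose identity was not given in the sources used here. They give no strand, so a peak over exons of several genes counted for each, which concerned 55 of the 4617 peaks (1.19%).

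Prrc2a is a large proline-rich cytoplasmic protein that can bind mRNA carrying N6-methyladenosine (m6A), the most common internal modification of mRNA. The methyltransferase complex around Mettl3 and Mettl14 writes this mark within a short sequence that commonly reads GGAC, most often in long internal exons and around the stop codon. In the nervous system the mark and its reader proteins are known to bear on mRNA stability and on the differentiation of neurons and glia.

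Sequences of the peaks with the highest enrichment are shown because they carry what the enrichment alone does not, the bases under a call made in only 1 library. Among the 4617 peaks, with 1 chromosome left out of this count, 329 lay wholly in the coding sequence (CDS) of 1 exon and were at most 300 bases wide. Of these, 227 held at least 1 GGAC. Other CDS stretches of such length were not counted, so the 227 cannot be read as an excess of the motif. Of the most enriched among the 329, 5 follow, each read 5′ to 3′ on the strand of its gene from the NCBI GRCm38.p6 sequence (mm10), with every GGAC in capitals.
Adgrd1 chr5:129128861-129129106: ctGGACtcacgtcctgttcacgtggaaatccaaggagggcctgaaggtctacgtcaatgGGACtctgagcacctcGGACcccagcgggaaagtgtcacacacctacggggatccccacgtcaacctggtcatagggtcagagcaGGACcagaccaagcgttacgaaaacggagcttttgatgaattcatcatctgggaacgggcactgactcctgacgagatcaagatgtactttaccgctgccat
Krt77 chr15:101869201-101869476: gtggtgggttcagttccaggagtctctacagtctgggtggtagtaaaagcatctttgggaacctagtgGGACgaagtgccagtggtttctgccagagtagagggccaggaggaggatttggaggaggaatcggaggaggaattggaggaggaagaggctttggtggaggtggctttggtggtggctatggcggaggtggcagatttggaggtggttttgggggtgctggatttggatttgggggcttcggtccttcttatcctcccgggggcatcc
Ror1 chr4:100409735-100409981: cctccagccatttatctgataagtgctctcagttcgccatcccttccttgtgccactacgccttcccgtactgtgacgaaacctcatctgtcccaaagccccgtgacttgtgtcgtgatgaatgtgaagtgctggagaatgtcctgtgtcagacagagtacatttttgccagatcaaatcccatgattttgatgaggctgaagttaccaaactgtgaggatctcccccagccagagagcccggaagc
Rimbp3 chr16:17209405-17209618: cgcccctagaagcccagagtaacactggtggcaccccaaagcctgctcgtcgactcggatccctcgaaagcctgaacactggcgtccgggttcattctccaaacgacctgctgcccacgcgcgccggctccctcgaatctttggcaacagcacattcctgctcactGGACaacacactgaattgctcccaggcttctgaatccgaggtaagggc
Stc2 chr11:31360156-31360380: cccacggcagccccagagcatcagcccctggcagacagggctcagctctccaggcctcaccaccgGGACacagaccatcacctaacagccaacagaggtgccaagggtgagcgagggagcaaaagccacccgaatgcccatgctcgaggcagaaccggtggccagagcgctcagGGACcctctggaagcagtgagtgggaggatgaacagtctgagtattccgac
Adgrd1, an adhesion G protein-coupled receptor annotated on the plus strand, had 4 copies of GGAC in its peak, with a fold enrichment of 6.68 in replicate 1. Stc2, a secreted glycoprotein hormone, held 2 copies (5.86), while the keratin Krt77 (6.49) and the RIM-binding protein Rimbp3 (5.90) held 1 each. The peak in Ror1, a receptor of Wnt ligands, had none and was enriched 5.91 times. Replicate 2 had no peak anywhere in the exons of Adgrd1, Ror1 or Stc2, and had 1 in Krt77 and 3 in Rimbp3, none of which touched the stretches printed here.

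The share of exonic peaks found only in replicate 1 is to be read against the lists as a whole. Of all 18129 replicate 1 peaks, 9757 (53.8%) had no overlap in replicate 2, and 5140 of these lay outside protein-coding exons. Of 16084 exonic peaks of replicate 2, 8386 (52.1%) had no overlap in replicate 1, a larger share than the 38.7% seen in the other direction. By chromosome, leaving out Y with 2 exonic peaks, the share in replicate 1 ranged from 32.3% on chromosome 8 to 44.2% on chromosome 10, where it was 38.9% without the 51 peaks of D10Wsu102e described below, which left chromosome 4 highest at 42.2%.

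Fold enrichment of the 4617 peaks ran from 1.29 to 22.2, with a median of 2.49 (95% order-statistic interval 2.46 to 2.53). The 7317 exonic replicate 1 peaks that did overlap replicate 2 had a median of 2.27, and 16.3% of the peaks without overlap reached an enrichment of 4 against 11.5% of those with one. Peaks without overlap were thus present over the whole range of enrichment. When the exonic replicate 1 peaks were divided into 4 bins by enrichment, the share found only in replicate 1 was 32.0% in the lowest bin, 36.0% and 41.4% in the next bins and 45.3% in the highest. Replicate 2 showed the other order, since its exonic peaks without overlap had a median of 2.26 and its shared peaks 2.76. The number of reads behind either list is not known, so no depth could be set beside these values. Intervals here and below cover counting error only, and peaks of 1 gene are not independent of each other.

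**Figure D1:**
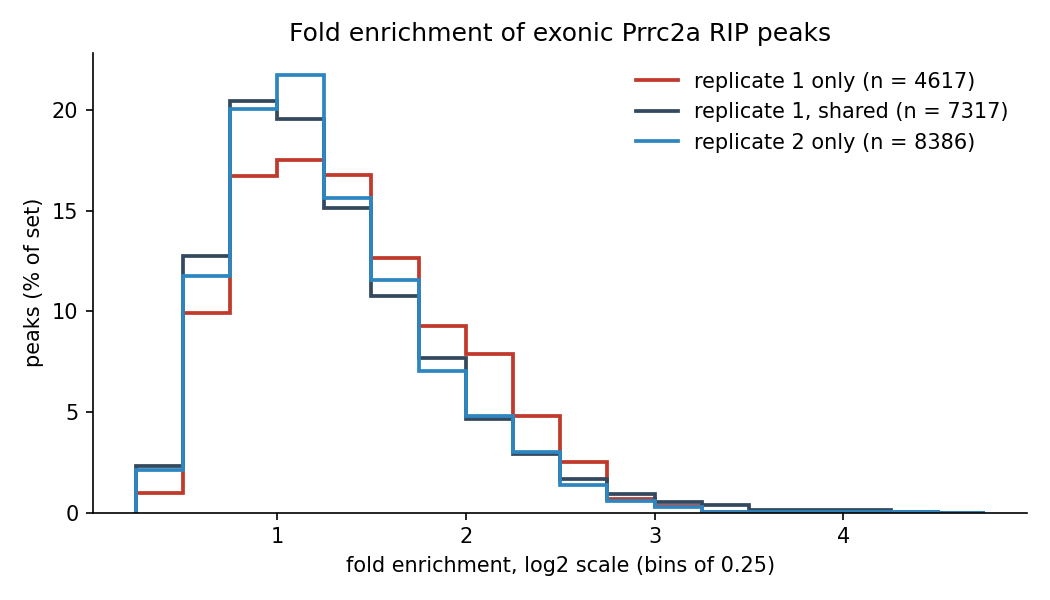
Fold enrichment of exonic peaks on a log2 scale in bins of 0.25 (x axis), as the percentage of each set (y axis), for peaks found only in replicate 1 (n = 4617), replicate 1 peaks shared with replicate 2 (n = 7317) and peaks found only in replicate 2 (n = 8386). The line of the replicate 1 only set lies to the right of the others, with a median of 2.49 against 2.27 and 2.26.

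Within genes the direction turned. In the 1334 genes with both kinds of replicate 1 peak, the median enrichment of peaks without overlap was above that of the shared peaks in 551 genes (41.3%), and the median of the log2 ratio over genes was -0.09 (interval -0.12 to -0.06). The higher median of the whole set therefore did not hold for peaks compared inside the same gene. Many values recurred exactly, as 18.7% of the 4617 peaks had an enrichment shared by at least 10 peaks of the list against 4.39% of the shared peaks. The part of such repeated values in the difference between the sets was not tested. Peaks named below by their enrichment also had recurring values. One value, 6.68, stood exactly alike for peaks in Adgrd1, Prl and D10Wsu102e, and another, 5.91, for peaks in Ror1 and D10Wsu102e. An order of single peaks by enrichment therefore holds ties, and the reads behind each value are not known.

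Peaks found only in replicate 1 were narrower than shared ones. They had a median width of 342 bases against 469, and 13.6% of the widest of 4 bins lacked an overlap against 57.1% of the narrowest. A wider peak has more bases that can meet a peak of the other list, so this order is partly built into the choice. Exonic bases under a peak had a median of 242 against 376, and the widest exon under it a median of 818 against 1572 bases.

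**Figure D2:**
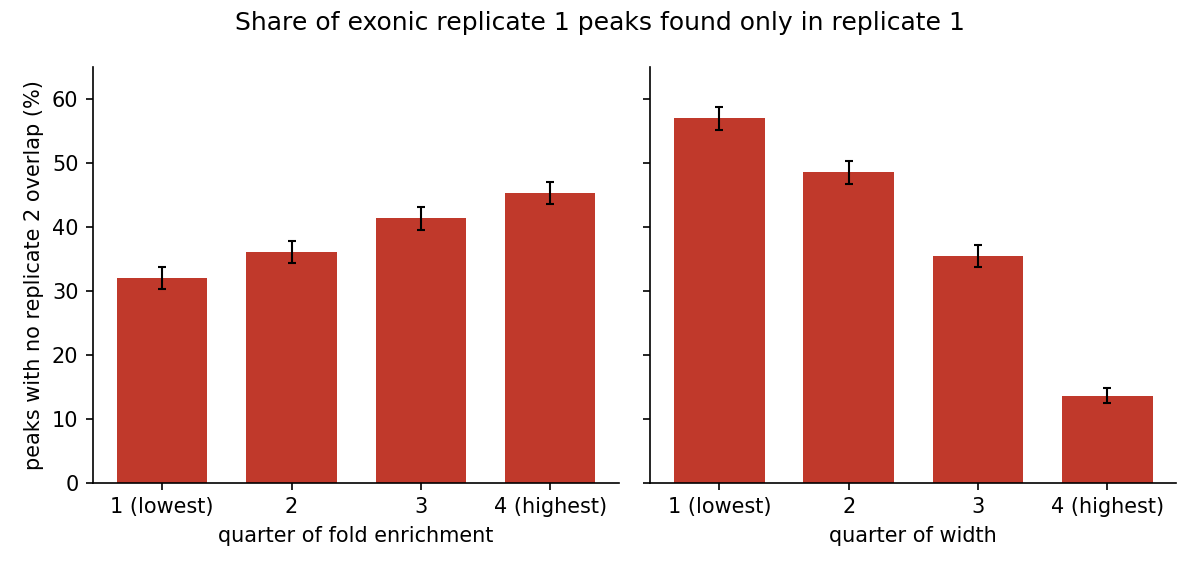
Share of exonic replicate 1 peaks with no replicate 2 overlap (y axis, percent) in 4 bins of fold enrichment (left) and of peak width (right), with 95% Wilson intervals that cover counting error. The share went up from 32.0% to 45.3% across the enrichment bins and down from 57.1% to 13.6% across the width bins.

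The midpoints of 2358 of the 4617 peaks (51.1%) lay in CDS, of 1304 (28.2%) in a 3′ UTR and of 468 (10.1%) in a 5′ UTR. A further 326 midpoints (7.06%) were intronic, in peaks that reached into an exon. These shares depend on reading the midpoint with CDS first: by the annotation with the most bases under the peak, CDS held 35.0% and introns 22.9%, and among peaks with at least 50% of their bases exonic the intron share was 1.10%. Shared replicate 1 peaks had nearly the same CDS share (50.9%), while 30.3% were centred in a 3′ UTR, 11.4% in a 5′ UTR and 4.22% in an intron. For exonic peaks found only in replicate 2 the values were 52.3%, 32.6%, 6.27% and 7.37%, so the 5′ UTR share was lower there than in the replicate 1 set beyond their counting intervals. Start codons lay under 7.69% and stop codons under 6.67% of the peaks found only in replicate 1, against 13.2% and 13.1% of the wider shared peaks. All bases were exonic in 50.5% of the 4617 peaks, and 208 (4.51%) had under 25% of their bases in exons.

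**Figure D3:**
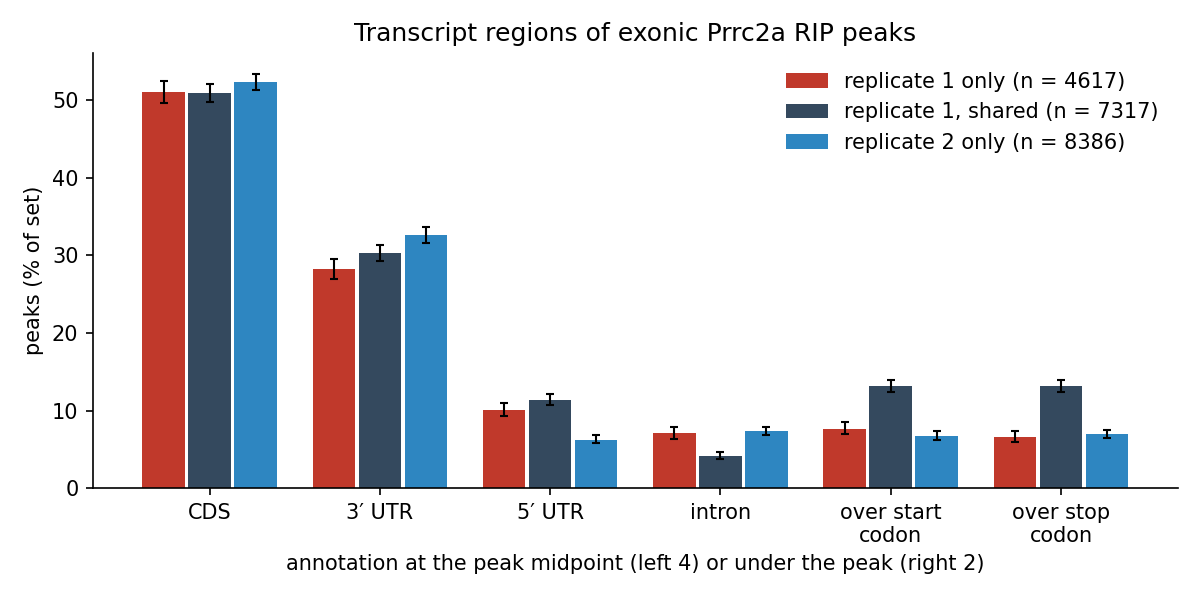
Percentage of peaks (y axis) whose midpoint lay in each annotation (left 4 groups of bars) or that covered a start or stop codon (right 2 groups), for the same 3 sets of exonic peaks, with 95% Wilson intervals that cover counting error. CDS shares lie between 50.9% and 52.3% in the 3 sets, while the shared peaks lie highest for start and stop codons.

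Enrichment differed with the region. Peaks centred in 3′ UTRs had a median of 2.27, those in CDS 2.47, those in 5′ UTRs 2.62 and those in introns 3.10, and the intervals of the 3′ UTR and intron medians did not meet those of CDS. Peaks with all bases exonic had a median of 2.31, and those with under 50% exonic bases one of 2.82. The 110 peaks centred in other exons of protein-coding genes, outside CDS and UTRs, had the highest median of these regions, 3.46. Among shared peaks the medians of wholly and of under 50% exonic peaks were 2.04 and 2.81.

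GGAC lay within 50 bases of the midpoint, on the strand of the gene, in 36.4% of the 3768 peaks whose window, the midpoint with 50 bases on each side, fitted within 1 exon (Wilson interval 34.9% to 38.0%). The share was 37.0% for shared replicate 1 peaks, 36.5% for peaks found only in replicate 2 and 29.1% over all 847864 windows of the same length tiled over protein-coding exons. GGACT, the longer form of the motif and contained in the GGAC count, was found in 10.4% of the windows of peaks found only in replicate 1 (Wilson interval 9.47% to 11.4%). The share was 12.1% for shared replicate 1 peaks, 11.8% for peaks found only in replicate 2 and 9.31% for all tiled windows. The median GC content of the windows was 52.5% for peaks found only in replicate 1 and 47.5% for the tiled windows, and its part in the motif shares was not tested. A match of letters says nothing on whether the site was methylated or bound.

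The 2322 genes with an exonic peak found only in replicate 1 made up 10.6% of the 21938 protein-coding genes. Shared exonic peaks of replicate 1 touched 12% and exonic peaks of replicate 2 touched 21.1% of them. Of the 2322 genes, 1690 (72.8%, interval 70.9% to 74.6%) had a replicate 2 peak elsewhere in their exons. In 1331 of them (57.3% of the 2322) a replicate 1 peak also overlapped replicate 2, and in 359 (15.5%) both replicates had exonic peaks but none that met. The other 632 genes (27.2%) had no replicate 2 peak in any exon, and 37 of these had one elsewhere in the gene span. Counted by peak, 3702 of the 4617 (80.2%) lay in a gene with an exonic replicate 2 peak.

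Where the gene had a replicate 2 peak, the distance to it along exon bases had a median of 448 bases. It was within 500 exon bases for 52.5% and within 1000 for 70.3% of those 3702 peaks, and 350 (9.45%) had none of the gene's exon bases between the peaks. On the genome the nearest replicate 2 peak was a median of 6190 bases away, within 1000 bases for 26.6% and within 5000 for 47.1% of the 4617 peaks. From the other side, 14.3% of exonic peaks found only in replicate 2 had a replicate 1 peak within 1000 bases.

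Close to the limit of the choice, single bases decided. The peak in Nog, which encodes a secreted antagonist of bone morphogenetic proteins, ended on the base before a replicate 2 peak (enrichment 1.84 against 2.62) and counted as found only in replicate 1. In Ipcef1 1 base separated the peaks (1.51 against 2.49). On the other side, peaks in Sertad3 (3.25) and Mettl4 (2.55) overlapped a replicate 2 peak by 1 base and counted as shared. These were few, as 2 peaks inside had a gap under 5 bases and 5 outside an overlap of up to 5. On the exon side, 8 peaks had 10 or fewer exonic bases.

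Genes with several such peaks more often had a replicate 2 peak. One peak found only in replicate 1 was present in 1365 genes, of which 66.4% had an exonic replicate 2 peak. That share was 75% for the 472 genes with 2 such peaks, 87.7% for the 389 genes with 3 to 5 and 92.7% for the 96 genes with 6 or more. Gene length moved with this, as the exonic length had a median of 7680 bases in genes with and 4718 in genes without an exonic replicate 2 peak, and 2877 in genes without a peak in either replicate. Its part was not tested.

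D10Wsu102e, on chromosome 10, had the highest count, with 51 peaks found only in replicate 1 and no peak in replicate 2. Their enrichment ran from 2.67 to 8.04 with a median of 5.13. All 51 midpoints fell in the last exon of the GENCODE gene model, chr10:83365704-83488505, which at 122802 bases was the longest merged exon among the 2322 genes, and the peaks covered 22650 of its bases. In the RefSeq annotation of the same build this exon is 3132 bases long and the gene ends at 83368835, and all 51 peaks began past that end. They were thus in exons of this gene by the GENCODE model and not by the RefSeq model. Over the whole set, 94.9% of the 4617 peaks overlapped an exon of a RefSeq mRNA, against 97.9% of shared peaks.

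**Figure D4:**
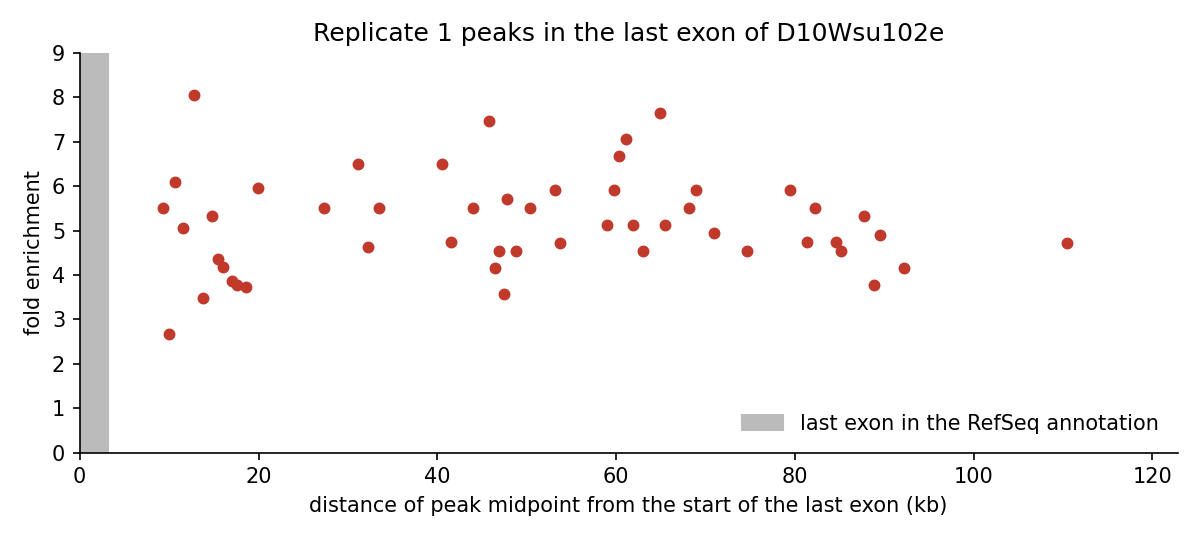
Fold enrichment (y axis) of the 51 replicate 1 peaks in the last exon of D10Wsu102e against the distance of their midpoint from the start of that exon in kb (x axis), with the extent of the exon in the RefSeq annotation in grey. The points lie between 2.67 and 8.04 and all lie to the right of the grey band.

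The next 9 genes by number of peaks had both kinds in every case, and most of their peaks found only in replicate 1 were centred in CDS. Lrp1b, a giant receptor of the LDL receptor family, had 32 such peaks next to 23 shared ones and 26 replicate 2 peaks. Their enrichment in replicate 1 had a median of 3.23. The CUB and sushi domain genes Csmd2 and Csmd3 had 28 and 26, next to 19 and 27 shared. Both fibrillin genes, which encode microfibrils of the extracellular matrix, were on the list, and they differed. Fbn2 had 27 peaks found only in replicate 1 and 23 shared, while Fbn1 had 25 and 3. Those 25 peaks of Fbn1 had a median enrichment of 4.07 in replicate 1, and replicate 2 had 3 peaks in the gene with a highest enrichment of 3.85.

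Nbeal1, of the BEACH domain family, had 27 and 15 shared. Ryr3, the ryanodine receptor that releases calcium from internal stores, had 25 and 9. For Syne2, which encodes the nuclear envelope linker nesprin-2, the counts were 22 and 7, and for dystrophin (Dmd) 20 and 16. The peaks found only in replicate 1 outnumbered all exonic peaks of replicate 2 in 8 of the 10 genes, D10Wsu102e included. The difference was widest next to it in Fbn1 (25 against 3) and Syne2 (22 against 8). Csmd3 (33 in replicate 2) and Dmd (22) had the other order. The 10 genes were chosen by their number of such peaks, so this order is largely fixed by the choice. Over all genes there were 4617 peaks found only in replicate 1 and 16084 exonic peaks of replicate 2.

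**Figure D5:**
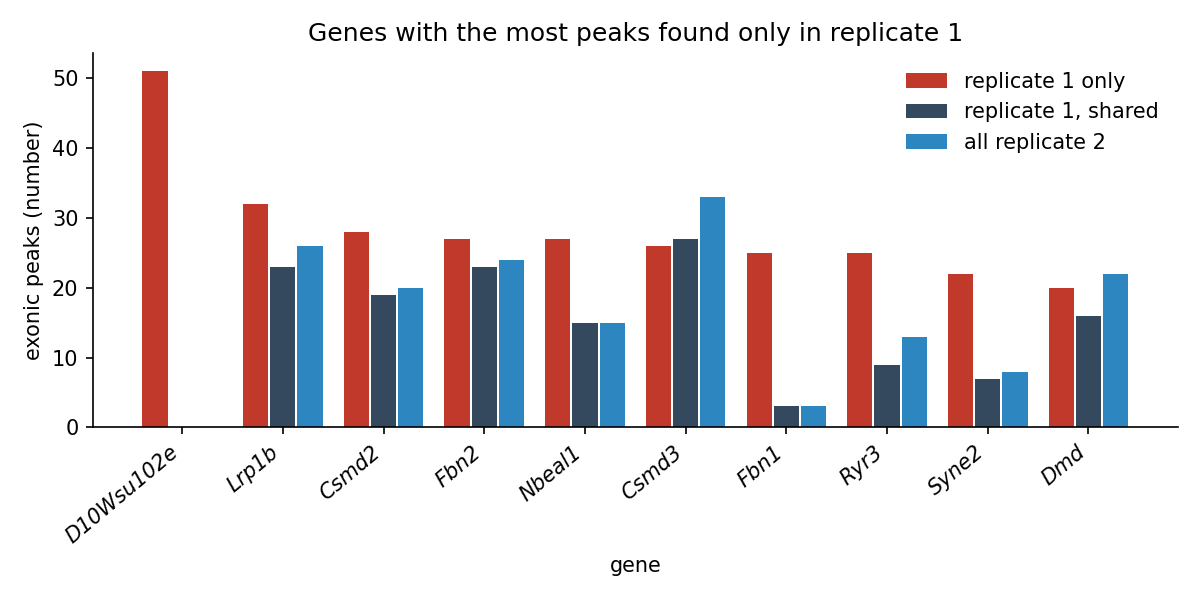
Number of exonic peaks (y axis) in the 10 genes with the most peaks found only in replicate 1 (x axis), for peaks found only in replicate 1, replicate 1 peaks shared with replicate 2, and all replicate 2 peaks. D10Wsu102e has 51 of the first kind and none of the others, while Csmd3 has 26, 27 and 33.

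The highest enrichment among peaks centred in an exon was 11.9, in a peak of Nbeal1 with its midpoint in CDS (chr1:60261343-60261713). It had 176 of its 371 bases in exons. Another peak of this gene centred in CDS reached 9.40, with 120 of 445 bases exonic. The protocadherin Pcdha5, a cell adhesion molecule of neurons, followed with 11.7 in a peak of 1089 bases that lay wholly in an exon, 260 bases from the nearest replicate 2 peak. Rc3h1, which encodes the RNA-binding ubiquitin ligase Roquin-1, reached 10.2 in a peak with 133 of its 468 bases exonic. The gene had 14 shared peaks besides. Syne2, Csmd1 and the poly(A)-binding protein gene Pabpc5 had peaks with the same enrichment of 9.21. Exonic bases were 188 of 391 in Syne2, 78 of 413 in Csmd1 and all 708 in Pabpc5. Csmd1 had 51 shared peaks and 58 in replicate 2. The centrosome gene Nin had 8.32 in a peak centred in its 5′ UTR, with 244 of 342 bases exonic. The bromodomain gene Brwd3 had 8.43 in a peak centred in CDS, with 151 of 375 bases exonic.

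Of these 10 peaks, 9 were in genes with replicate 2 exonic peaks. The exception was Rnps1, a part of the exon junction complex that marks spliced mRNA, with 8.52 in its 3′ UTR (chr17:24425402-24425723), no shared peak and the nearest replicate 2 peak 15665 bases away.

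In the 632 genes with no exonic replicate 2 peak, the 915 peaks had a median enrichment of 2.71 and a median width of 289 bases. The 3186 peaks in genes that also had a shared peak had 2.46 and 369. The 5′ UTR held 15.8% of the former midpoints and 8.04% of the latter, and CDS 44.8% and 53.3%. Recurring enrichment values were more common too, at 28.2% against 16.1%. The 915 peaks include the 51 of D10Wsu102e, all centred in its 3′ UTR and with a median enrichment of 5.13. The values of this group were not computed without them.

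The highest peak of the whole replicate 1 list was among these 915. It lay over the growth hormone gene Gh for 1569 bases (chr11:106300221-106301789) with an enrichment of 22.2. Of these bases 786 were exonic, and the midpoint was intronic. The nearest replicate 2 peak was 145123 bases away. Prl, the gene of the pituitary hormone prolactin, had a CDS peak of 6.68, with the nearest replicate 2 peak 1354397 bases away. Of 7 pituitary genes listed these were the 2 with any exonic peak in either replicate, and 5 had none. In bulk tissue, fewer cells of a type and less RNA per cell cannot be told apart, and the part of pituitary tissue in these peaks was not tested.

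Others in genes without an exonic replicate 2 peak were Ddx4, a helicase of the germ line (9.79), where the peak of 1094 bases held 198 exonic bases and its midpoint was intergenic. The transcription factor genes Sox13 and Foxp2 had 7.54 and 7.39, both centred in a 5′ UTR, and Sox13 had 5 such peaks. Prr15 reached 7.21 in its 5′ UTR and Tcte2 6.75 in its 3′ UTR. The peak named for the histone gene Hist2h2aa2 (6.77) had 29 bases in its exons and was centred in an exon of a non-coding RNA, and a replicate 2 peak lay 1035 bases away.

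Gene lists are given as counts, to be read against the 10.6% of all protein-coding genes with a peak found only in replicate 1, the 12% with a shared peak and the 21.1% with an exonic replicate 2 peak. Chromatin remodelers and histone modifiers, which open, close or mark nucleosomes, had such a peak in 34 of 48 genes (70.8%), all of which also had an exonic replicate 2 peak. Examples were the DNA demethylase Tet1 with 5.91, the deacetylase Hdac4 with up to 4.05 over 7 peaks and the acetyltransferase Crebbp with up to 3.97 over 9. Shared peaks were present in 40 of the 48 (83.3%), so the list was high in every set, and 34.4% of its exonic replicate 1 peaks lacked an overlap against 38.7% of all. The part of gene length in the counts of any list was not tested.

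The next 6 lists, of genes for cell contacts, axon guidance, potassium channels, the cytoskeleton and synapses, had shares above those of all genes in each of the 3 sets. Giant cadherins had a peak found only in replicate 1 in 6 of 9 genes, with up to 6.26 in Fat3, 5.96 in Dchs2 and 5.60 over 10 peaks in Celsr1. Axon guidance genes had one in 24 of 51 (47.1%), among them the Ephrin receptor Ephb3 (6.10), the Robo ligand Slit3 (5.41) and Plxna2 (5.20), a semaphorin receptor, and 23 of the 24 had a replicate 2 peak. Neurexins, neuroligins and latrophilins, which join the membranes of the synapse, had one in 8 of 17 genes, led by Flrt2 (5.66) and Nrxn3 (3.91). For potassium channels the count was 14 of 40 (35.0%), for cytoskeletal linkers 7 of 24 and for synaptic vesicle, active zone and scaffold genes 10 of 37. In all 6 lists the share of exonic replicate 1 peaks without overlap was below the 38.7% of all, at 25.7% for giant cadherins, 33.5% for axon guidance, 27.3% for neurexins and their partners, 21.2% for potassium channels, 37.4% for cytoskeletal linkers and 18.1% for the synaptic list. The value for cytoskeletal linkers was close to that of all. Other lists went both ways. Glutamate receptors had 15.0%, m6A and Prrc2 genes 29.4%, sodium and calcium channels 37.3% and astrocyte genes 37.5%. Above the share of all were Zfp genes (39.0%), the oligodendrocyte lineage (44.4%, 4 peaks without overlap and 5 with) and GABA-A receptor subunits (66.7%, 4 and 2). Both exonic replicate 1 peaks of the pituitary genes lacked an overlap.

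Sodium and calcium channels had such peaks in 6 of 23 genes, of which Cacna1c had 9 with an enrichment of 1.54 to 4.60. In ionotropic glutamate receptors it was 4 of 18, and 6 of the 9 peaks lay in Grik4, a kainate receptor subunit without a shared peak (1.89 to 4.45). GABA-A receptor subunits had 3 of 13, where 1 peak of 1.52 counted for Gabra4 and Gabrb1 alike. Zinc finger genes named Zfp had 96 of 391 (24.6%), and the same number of them had a shared peak.

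Writers, erasers and readers of m6A and the Prrc2 genes had a peak found only in replicate 1 in 3 of 18. These were Rbm15, an adaptor of the methyltransferase, with 3 peaks of 3.21 to 4.70 next to 3 shared ones, the reader Ythdc2 (2.08) and the writer subunit Virma (1.89), and all 3 genes had exonic replicate 2 peaks. Of the 18 genes, 6 (33.3%) had a shared peak and 11 (61.1%) an exonic replicate 2 peak. The oligodendrocyte lineage had a peak found only in replicate 1 in 3 of 23 genes (13.0%), near the 10.6% of all genes. Exonic replicate 2 peaks were present in 10 of the 23 (43.5%), against 21.1% of all genes. Shared peaks were present in 3 of the 23 (13.0%), near the 12% of all genes. Tcf7l2, a transcription factor of maturing oligodendrocytes, had a 5′ UTR peak of 6.14, and Mbp, which encodes myelin basic protein, had 3′ UTR peaks of 4.32 and 4.21 while its replicate 2 peaks reached 1.49. Sox8 had 1.37 and no replicate 2 peak. Astrocyte genes had 2 of 14, the glutamate transporter gene Slc1a2 with 6.29 and 4.24 and Aldh1l1 with 4.21, the latter with no exonic replicate 2 peak. The enrichment of the Aldh1l1 peak was exactly that of the lower Mbp peak.

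Several lists had few or no such peaks. Clustered histone genes had 2 of 67, Hist2h2aa2 and Hist1h1c (3.02), although 35 of the 67 had a shared peak, so 5.41% of their exonic replicate 1 peaks lacked an overlap. None was found in 80 cytosolic ribosomal protein genes, 94 nuclear genes of the respiratory chain, 12 neuronal, 11 microglial, 8 endothelial or 5 blood marker genes. Olfactory receptors had 1 of 1093, Olfr464 with 4.16. Absence of a peak does not show absence of the RNA, since the lists hold enrichment and not expression, and the whole-brain label could not be checked beyond these counts.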

How the data were processed

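Prrc2a RIP-seq peak lists of 2 replicates were analysed. Per the methods, the authors trimmed the reads, aligned them with TopHat2, kept uniquely mapped reads (mapping quality minimum 20) and ran MACS2 on each replicate at an FDR of 0.05. The submitters' processing notes name TopHat2 2.0.9, MACS2 2.0.10 and mm10, and the published methods give other versions of both tools. The deposited fold enrichment is a linear ratio over the control, with no FDR, read count or strand, so the depth is not known and no count test could be run.

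Positions were read as 1-based and inclusive. Exons were those of all transcripts of protein-coding genes in GENCODE M21 on GRCm38, the build of the files. The region of a peak was read at its midpoint, where CDS took precedence over a 3′ UTR, then a 5′ UTR, an exon of a non-coding RNA, other exons, introns and intergenic sequence. The motif was searched on the strand of the gene with the most exon bases under the peak. Shares carry 95% Wilson intervals and medians 95% order-statistic intervals. The named genes were the 10 most enriched peaks centred in an exon, the 10 genes with most peaks, the 10 genes with the most enriched peak and no exonic replicate 2 peak, the peaks nearest the limit of the choice, and the most enriched examples of 23 gene lists. Grik4, Cacna1c, Gabra4, Gabrb1 and the RefSeq model of D10Wsu102e were chosen after their values were seen. The peaks and lists were chosen with earlier results of these data known. No test was run, because the peak calls themselves chose the set and there was 1 condition. The scripts ran under Python 3.11.15 (numpy 2.4.6 for arrays, scipy 1.17.1 for intervals, matplotlib 3.10.9 for plots), and all 9 quantities were recovered in tests on simulated data with 300 genes. The printed sequences are of peaks among the most enriched that lay in the CDS of 1 exon, and 1 such peak is not reported here.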

Additional observations from a re-analysis of the deposited data

How the results depend on the processing

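Of 89 values of 9 results under 13 alternatives, 59 stayed within 1.5 times the count or within the 95% interval of the share or median, and 30 did not. When sharing required 50% of both peaks to overlap, 7185 peaks were found only in replicate 1 and 78.9% of their genes had a replicate 2 peak. In this setting that replicate 2 peak could be one that overlapped the counted peak by less than the limit. The 78.9% is thus not a share of genes with a replicate 2 peak elsewhere. The median enrichment was 2.37, CDS held 47.9% and 3′ UTR 32.6%. With at least 50% of bases exonic, the values were 70.7% of genes, a median of 2.38, 46.9% CDS, 36.8% 3′ UTR, 12.1% 5′ UTR and 1.10% intron. At an enrichment of at least 4, 753 peaks in 453 genes were left, with 70.9% of genes, a median of 4.80, 47.9% CDS, 20.7% 3′ UTR, 13.3% intron and 38.0% with GGAC. In the mirror choice, 8386 peaks in 3550 genes were found only in replicate 2, 53.9% of these genes had a replicate 1 peak, the median was 2.26, and 32.6% were 3′ UTR and 6.27% 5′ UTR. Taking the annotation with the most bases gave 35.0% CDS and 22.9% intron. GGAC anywhere in the exon bases gave 63.8% and GGACT 10.4%. With GENCODE basic transcripts, chosen after seeing the data, CDS held 53.0%. Leaving out D10Wsu102e, also chosen after seeing the data, moved none of the 9 results outside these limits. Leaving out a replicate could not be run, because the choice needs both lists. No paired analysis was possible because both samples form 1 group.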
